A study of Homo sapiens with 6 samples.

Results

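The genes described here are 10 ETS family transcription factors with roles in blood cells, ETS1, ETS2, FLI1, ERG, SPI1, ELF1, ELF4, ETV6, GABPA and ELK3. Their rows were found by gene symbol, and all 10 are among the 35410 genes of the deposited table. RNA was measured by MACE-Seq, which sequences the 3′ ends of polyadenylated RNA, in SEM::EGR3 and SEM::mock with 3 biological replicates each. SEM is an established human B cell precursor leukemia line of proB phenotype with a KMT2A::AFF1 fusion. SEM::EGR3 carries an inducible EGR3 expression vector and SEM::mock the empty vector, and both lines received doxycycline at 1 µg/mL for 48 h before RNA was taken. Each condition is a single transfected line, and whether a line was 1 clone or a pool is not given in the sources used here.

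ETS factors share a DNA-binding domain that recognizes a GGAA core, and they differ in the parts of the protein outside it. In blood formation, ERG and FLI1 serve stem cells and megakaryocytes, SPI1 (PU.1) serves myeloid and early B cells, and ETS1 serves lymphocytes. ETV6 and ELK3 act largely as repressors, ELF1 and ELF4 belong to a subfamily active in lymphoid and stem cells, and GABPA drives many housekeeping and mitochondrial genes together with a GABPB partner. Because ETS proteins can occupy similar sites, the make-up of the family in a cell is of interest beside the level of each gene.

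Library depth ranged from 5286115 to 6181388 tags in SEM::mock and from 7293092 to 15106018 in SEM::EGR3. All levels below are CPM, tag counts scaled by library size with TMM factors, as mean ± SD of the libraries (n = 3 per line). Differences are log2 ratios of SEM::EGR3 to SEM::mock from edgeR with their standard error (SE) and an adjusted p. The transgene EGR3 itself rose from 1.42 ± 0.249 to 637 ± 27.1 CPM. Markers of the labelled cell type were checked before the ETS genes. Of 13 B-lineage markers, 9 had 3 counts or fewer in each SEM::mock library, EBF1 at 0 counts in all 3 among them, and 3 of 13 were that low in SEM::EGR3 (RAG2, DNTT and BLNK). Of 10 targets of KMT2A fusions, HOXA7, HOXA9 and PROM1 were at this limit in SEM::mock, and none was in SEM::EGR3. The erythroid markers summed to between 4951 and 5231 CPM in SEM::mock and between 6213 and 6457 CPM in SEM::EGR3, although neither line is labelled erythroid. The lines thus differ in cell type markers as well as in the transgene, and these differences cannot be told apart from EGR3 expression in the values below. In bulk RNA, fewer cells of a type and less RNA per cell cannot be told apart either.

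All 10 genes passed the filter on low counts and reached an adjusted p below 0.05 in the quasi-likelihood test of edgeR, adjusted by Benjamini-Hochberg over 15465 tested genes. By this criterion, 68.5% of all tested genes differed between the lines, so that a call by itself says little here. The 6 genes higher in SEM::EGR3 were ERG, FLI1, ETS1, ELF1, GABPA and ETS2 (36.5% of all tested genes were higher), and the 4 lower were SPI1, ETV6, ELK3 and ELF4 (32.0% of all tested genes were lower). A log2 ratio of 1 or more in size was found for 6 of the 10, against 25.2% of all tested genes, but 3 of these 6 (ERG, FLI1 and ETS1) passed the filter through SEM::EGR3 alone. Across the 10 genes the log2 ratio had a median of 0.46, also with genes at the detection limit set to their lower bounds, and that of all tested genes was 0.03. Without ERG, FLI1 and ETS1 the median of the other 7 was -0.37. In 9 of the 10 genes the libraries of the 2 lines did not overlap, as in 70.1% of all tested genes, and the exception was ETS2.

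**Figure D1:**
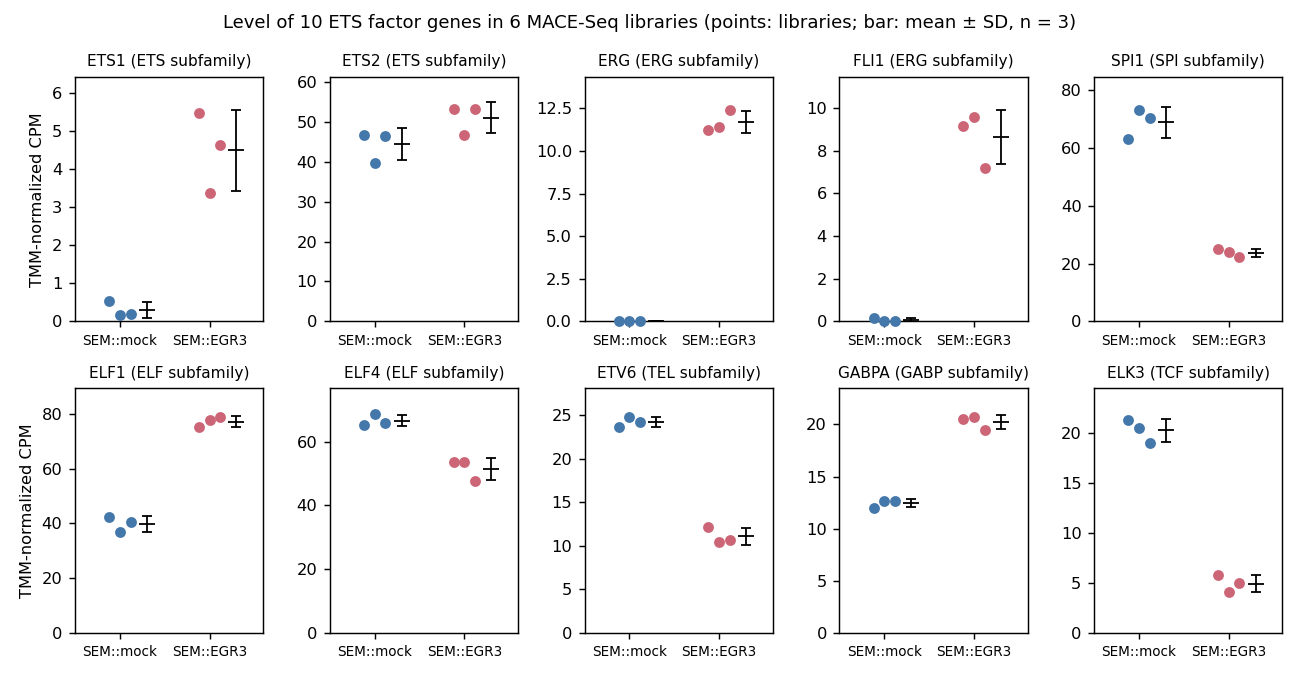
TMM-normalized CPM (y axes, linear, starting at 0, with a different range in each panel) of the 10 ETS factor genes in 3 SEM::mock (blue) and 3 SEM::EGR3 (red) libraries, with the mean ± SD beside the points. ERG, FLI1 and ETS1 lie at or near 0 in SEM::mock, SPI1, ETV6, ELK3 and ELF4 are lower in SEM::EGR3, and only ETS2 overlaps between the lines.

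ERG and FLI1, close relatives that act in blood stem cells and megakaryocytes, were measured in SEM::EGR3 and were at or near 0 in SEM::mock. ERG (ENSG00000157554, chromosome 21 of GRCh38, 38380027 to 38661780, minus strand) was counted 0, 0 and 0 times in replicates 1 to 3 of SEM::mock and 174, 85 and 112 times in those of SEM::EGR3. In SEM::EGR3 it reached 11.7 ± 0.612 CPM, which is at least 21.6-fold higher than 3 counts in each SEM::mock library would give. FLI1 (ENSG00000151702, chromosome 11, 128686535 to 128813267, plus strand) was counted 1, 0 and 0 times in SEM::mock and 142, 71 and 65 times in SEM::EGR3. No SEM::EGR3 library came near the SEM::mock libraries for either gene. Both passed the filter on low counts through SEM::EGR3 alone, so no p-value is given for them here. FLI1 reached 8.64 ± 1.27 CPM in SEM::EGR3. The ratio of FLI1 between the lines, from summed counts, was 145 with a 95% exact binomial interval of 25.9 to 5765. Such intervals and bounds cover counting error only. Endothelial markers, whose cells also express ERG and FLI1, summed to 2.3 to 4.86 CPM in SEM::mock and 25.6 to 29.6 CPM in SEM::EGR3 over 4 listed genes, with CDH5 at 0 in SEM::mock and at most 1 count in SEM::EGR3. The 4 listed megakaryocyte markers summed to 11.2 to 12.2 and 12.8 to 14.5 CPM. The part of other cell types in the ERG and FLI1 values was not tested. Within SEM::EGR3, the count of ERG was 1.2 to 1.72 times that of FLI1 in each library. The fitted log2 ratio of FLI1 moved from 6.85 to 9.22 without SEM::mock replicate 1, the library with the single count.

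ETS1 and ETS2 form the subfamily that gave the family its name, and both proteins are phosphorylated downstream of RAS. ETS1 (ENSG00000134954, chromosome 11, 128458761 to 128587558, minus strand), which is high in T and B cells, was counted 3, 1 and 1 times in SEM::mock and 85, 25 and 42 times in SEM::EGR3. All SEM::EGR3 libraries were higher, at 4.5 ± 1.06 CPM, and ETS1 was still the lowest of the 10 genes in that line. Its ratio was 15.9 (95% exact binomial interval 6.67 to 49.7), and the fitted log2 ratio of 3.90 became 4.58 without SEM::mock replicate 1. ETS1 passed the filter through SEM::EGR3 alone, so no p-value is given for it here. The 7 T cell markers summed to 60.4 to 66.9 CPM in SEM::mock and 130 to 143 CPM in SEM::EGR3, with CD5 at 0 counts in SEM::mock. Of 5 tested T cell markers, 3 were higher (TRAC, LCK and CD2) and 2 lower, among them CD3D, which went from 58.1 to 6.26 CPM. The part of these markers in the ETS1 values was not tested. ETS2 (ENSG00000157557, chromosome 21, 38805307 to 38824955, plus strand) was counted 264, 237 and 237 times in SEM::mock and 825, 346 and 481 times in SEM::EGR3. The levels of ETS2 were 44.3 ± 3.97 and 51.0 ± 3.80 CPM, and SEM::EGR3 replicate 2 lay within the range of SEM::mock. The log2 ratio of ETS2 was 0.22 (SE 0.08, edgeR adjusted p = 0.0212). Leaving out SEM::mock replicate 2 lowered the ratio to 0.13 (edgeR adjusted p = 0.211). The call was also lost when SEM::EGR3 replicate 1 (0.18, edgeR adjusted p = 0.0871) or replicate 3 (0.19, edgeR adjusted p = 0.0692) was left out, and with DESeq2, so the difference in ETS2 is not firm.

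SPI1, whose protein PU.1 directs myeloid development and takes part in early B cell development, was the most abundant of the 10 genes in SEM::mock by mean and fell in SEM::EGR3. SPI1 (ENSG00000066336, chromosome 11, 47354860 to 47378576, minus strand) was counted 356, 437 and 359 times in SEM::mock and 388, 179 and 201 times in SEM::EGR3. After scaling for depth, these were 68.8 ± 5.32 and 23.8 ± 1.43 CPM, with every SEM::EGR3 library below every SEM::mock library. edgeR gave SPI1 a log2 ratio of -1.52 (SE 0.08, adjusted p = 1.85e-14). Of 4 tested myeloid markers, 2 were higher and 1 lower, against 36.5% and 32.0% of all tested genes, and PRTN3, among the higher, passed the filter through SEM::EGR3 alone. The 8 listed myeloid markers summed to 160 to 173 CPM in SEM::mock and 61.2 to 63.9 CPM in SEM::EGR3. MPO was at 0 in SEM::mock, and LYZ held most of the sum in both lines (155 and 42.7 CPM). The part of this marker difference in the SPI1 values was not tested.

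ELF1 and ELF4, of which ELF4 is known for a part in stem cell quiescence, moved in opposite directions. ELF1 (ENSG00000120690, chromosome 13, 40932028 to 41061440, minus strand) was counted 240, 219 and 206 times in SEM::mock and 1167, 577 and 714 times in SEM::EGR3. Its level rose from 39.8 ± 2.91 to 77.3 ± 1.86 CPM (log2 ratio 0.96, SE 0.07, edgeR adjusted p = 1.90e-11), without overlap of the lines. ELF4 (ENSG00000102034, chromosome X, 130064874 to 130110716, minus strand) was counted 370, 410 and 336 times in SEM::mock and 831, 397 and 431 times in SEM::EGR3. Its level fell from 66.6 ± 1.77 to 51.6 ± 3.41 CPM (log2 ratio -0.37, SE 0.07, edgeR adjusted p = 5.89e-05), and here too the libraries did not overlap. The ratio of ELF1 to ELF4 counts within a library, which needs no normalization between libraries, was 0.534 to 0.649 in SEM::mock and 1.4 to 1.66 in SEM::EGR3.

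The genes for ETV6 and ELK3, proteins that act largely as repressors, were both lower in SEM::EGR3. ETV6 (ENSG00000139083, chromosome 12, 11649854 to 11895402, plus strand), which is rearranged with RUNX1 in childhood leukemia, was counted 134, 148 and 124 times in SEM::mock and 189, 77 and 97 times in SEM::EGR3. The level of ETV6 fell from 24.3 ± 0.557 to 11.1 ± 0.965 CPM (log2 ratio -1.10, SE 0.11, edgeR adjusted p = 4.23e-09). ELK3 (ENSG00000111145, chromosome 12, 96194382 to 96269835, plus strand), which binds DNA together with serum response factor, was counted 120, 122 and 97 times in SEM::mock and 89, 30 and 45 times in SEM::EGR3. It showed the lowest log2 ratio of the 10 genes, -1.99 (SE 0.14, edgeR adjusted p = 7.56e-12), and went from 20.2 ± 1.11 to 4.92 ± 0.851 CPM. For both genes each SEM::EGR3 library lay below each SEM::mock library, and 1.46% of all tested genes had a lower log2 ratio than ELK3. GABPA (ENSG00000154727, chromosome 21, 25734570 to 25772460, plus strand) was counted 68, 76 and 65 times in SEM::mock and 318, 154 and 176 times in SEM::EGR3. Its level rose from 12.5 ± 0.417 to 20.2 ± 0.689 CPM (log2 ratio 0.70, SE 0.11, edgeR adjusted p = 7.94e-06), again without overlap.

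The order of the 10 genes by CPM of 3′ end tags, which are not divided by transcript length because a transcript is counted at its end, differed between the lines. In SEM::mock the order was SPI1, ELF4, ETS2, ELF1, ETV6, ELK3, GABPA, ETS1, FLI1 and ERG. Neighbours whose libraries overlapped there were SPI1 and ELF4, ETS2 and ELF1, and the last 3 genes, which were at the detection limit. In SEM::EGR3 the order was ELF1, ELF4, ETS2, SPI1, GABPA, ERG, ETV6, FLI1, ELK3 and ETS1. There, ELF4 could not be separated from ETS2, ERG from ETV6, or ELK3 from ETS1 by the range of their libraries. The summed level of the 10 genes was 275 to 279 CPM in SEM::mock and 261 to 271 CPM in SEM::EGR3. SPI1 took 24.9% ± 1.83 of this sum in SEM::mock and 8.98% ± 0.415 in SEM::EGR3. ELF1 took 14.4% ± 1.08 in SEM::mock and 29.2% ± 1.31 in SEM::EGR3. ERG, FLI1 and ETS1 held 4.42% ± 0.303, 3.26% ± 0.465 and 1.69% ± 0.373 of the sum in SEM::EGR3.

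**Figure D2:**
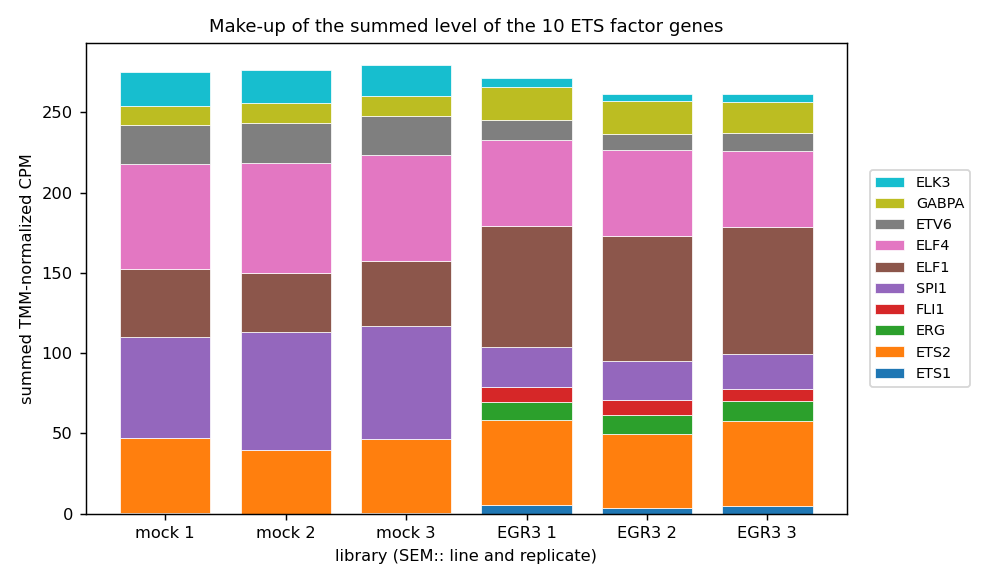
Stacked bars show the TMM-normalized CPM of the 10 ETS factor genes in each library (x axis) summed on a linear y axis that starts at 0. The sums lie between 261 and 279 CPM in all 6 libraries, while the SPI1 segment is smaller and the ELF1 segment larger in the 3 SEM::EGR3 bars.

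ETS1 and FLI1 lie side by side on chromosome 11, 99.0 kb apart in GENCODE release 29, and ERG and ETS2 lie 144 kb apart on chromosome 21. Within the first pair both genes were near 0 in SEM::mock. So was ARHGAP32, the next tested gene beyond FLI1 at 152 kb, with 0.484 CPM in SEM::mock and 21.1 CPM in SEM::EGR3. Within the second pair, ERG had no count in SEM::mock while ETS2 was expressed at 44.3 CPM. APP, the next tested gene after GABPA at 108 kb, had 0.124 CPM in SEM::mock and 57.4 CPM in SEM::EGR3. MYBPC3, 2.16 kb from SPI1, had 0.298 CPM in SEM::mock and 3.25 CPM in SEM::EGR3, while SPI1 fell. The SEM::mock means of ARHGAP32, APP and MYBPC3 lie below the level of 3 counts in a library (0.502 to 0.588 CPM). These genes passed the filter through SEM::EGR3 alone, so their ratios are not sized here. Several of the 10 genes overlap others on the opposite strand, and the use of strand in counting is not given in the sources used here. WBP4 overlaps the 5′ end of ELF1 over 167 bp and ATP5PF that of GABPA over 1104 bp, and neither covers the 3′ end. The log2 ratios of WBP4 and ATP5PF were -0.13 (edgeR adjusted p = 0.244) and -0.23 (edgeR adjusted p = 0.000366). The part of these overlaps in the ELF1 and GABPA values was not tested. SENCR, antisense to FLI1, had 0 counts in SEM::mock and at most 8 in a SEM::EGR3 library.

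Promoter windows from RefSeq (GRCh38.p14, 250 bases before to 50 bases after an annotated start) were searched on both strands for the EGR motif GCGNGGGCG and for the ETS motif CCGGAAG, since the lines differ in EGR3 and the genes encode ETS factors. Windows were matched by symbol for 7 of the 10 genes, and ETS1, FLI1 and SPI1 had none in the table. The EGR motif was found for 2 of the 7 genes, ERG and ETV6, and for 11.2% of all 27305 genes with a window. The ETS motif was found for 1 of the 7, GABPA, and for 12.2% of all genes. A gene with more windows has more chances of a match, and the 7 genes had 16 windows. Of these 16, 2 held the EGR motif and 1 the ETS motif, against 9.43% and 10.3% of all 35116 windows. A match describes these letters only and is not evidence of binding. Distances are from the RefSeq start, which can differ from the GENCODE bounds given above. The ERG and GABPA stretches lie within the GENCODE spans of these genes. The motif is in capitals in the following 30 bases, written 5′ to 3′ on the strand of the gene, where each motif appears as its reverse complement. The 2 ETV6 motifs overlap by 3 bases.
ERG, chr21:38660774-38660803, minus strand, EGR motif from 126 bases before the start: cgtgcattccCGCCCACGCgtccctgcccc
ETV6, chr12:11649542-11649571, plus strand, EGR motif from 122 bases before the start: gggtttcctcCGCCCGCGCccccgcggccg
ETV6, chr12:11649548-11649577, plus strand, EGR motif from 116 bases before the start: cctccgcccgCGCCCCCGCggccgcccctc
GABPA, chr21:25734896-25734925, plus strand, ETS motif from 66 bases before the start: ctccgctctaCTTCCGGccctggctccgcc
Of the genes with an EGR motif, ERG was higher and ETV6 lower in SEM::EGR3.

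The ETS family has 18 further genes, of which 17 were listed and 13 passed the filter, and SPIC was not analysed here. In SEM::EGR3, 7 of these 13 had risen and 5 had fallen (edgeR, adjusted p-value under 0.05). SPIB, ETV7 and SPDEF, among the 7 higher, passed the filter through SEM::EGR3 alone. With at least 10 counts in every library, which left these 3 untested, 4 of 10 tested genes were higher and 3 lower. Of all tested genes, 68.5% were called, 36.5% higher and 32.0% lower. The 5 lower calls were reduced to 3 when SEM::mock replicate 3, SEM::EGR3 replicate 2 or SEM::EGR3 replicate 3 was left out. ELK1 did not pass the threshold (log2 ratio -0.07, edgeR adjusted p = 0.390). The median log2 ratio of the 13 genes was 0.68, SPIB, ETV7 and SPDEF included. SPIB, the relative of SPI1 that acts in B cells and binds similar sites, was counted 11, 8 and 10 times in SEM::mock and 617, 253 and 323 times in SEM::EGR3. Its log2 ratio of 4.4 (SE 0.17) was opposite in sign to that of SPI1. No p-value is given for SPIB, which had 8 counts in SEM::mock replicate 2 and passed the filter through SEM::EGR3 alone. Within a library, the ratio of SPIB to SPI1 counts was 0.0183 to 0.0309 in SEM::mock and 1.41 to 1.61 in SEM::EGR3. ERF, a repressor controlled by ERK, rose from 51.9 ± 7.52 to 137 ± 17.8 CPM, while the repressor gene ETV6 fell, and the ratio of ERF to ETV6 counts went from between 1.78 and 2.43 to between 9.69 and 14.3.

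Among the other family genes that changed by 1 or more on the log2 scale, FEV, known from serotonergic neurons, rose from 17.3 ± 1.59 to 74.9 ± 4.26 CPM. ETV7, a relative of ETV6, rose from 0.822 ± 0.423 to 5.51 ± 1.06 CPM and SPDEF, an epithelial factor, from 0.422 ± 0.271 to 2.98 ± 0.510 CPM, both from single-digit counts in SEM::mock. ETV4 fell from 49.3 ± 2.36 to 15.3 ± 1.36 CPM (log2 ratio -1.71, SE 0.09, edgeR adjusted p = 2.76e-14). ELF3, ELF5, EHF and ETV3L, which did not pass the filter, had at most 6 counts in any library. Summed over the 27 listed family genes, the level was 590 to 599 CPM in SEM::mock and 749 to 765 CPM in SEM::EGR3. The 10 genes described first made up 45.9% to 47.4% of that sum in SEM::mock and 34.2% to 36.2% in SEM::EGR3.

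**Figure D3:**
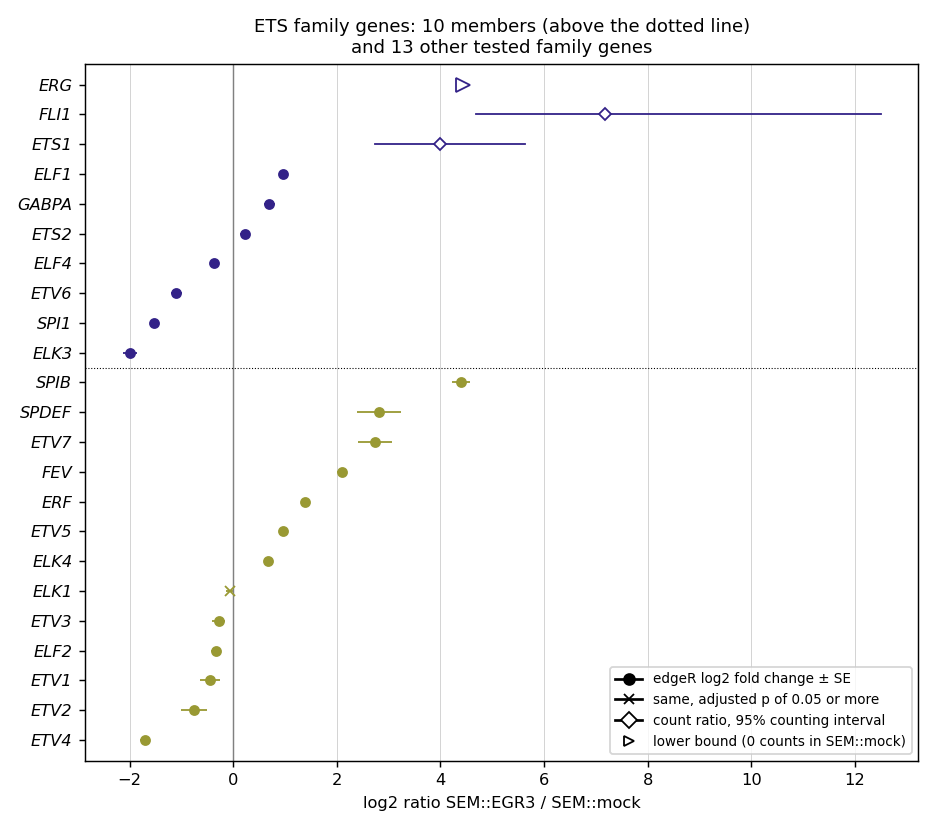
Log2 ratio of SEM::EGR3 to SEM::mock (x axis, 0 is no difference) of 10 ETS factor genes above the dotted line and 13 other tested ETS family genes below it, with edgeR's standard error, a 95% counting interval where SEM::mock had 3 counts or fewer per library, or a lower bound for ERG, which had 0 counts. For ERG only the bound of 21.6-fold can be drawn. The others of the 10 run from a log2 ratio of -1.99 (ELK3) to FLI1, whose unlogged ratio of 145 is drawn on the log2 scale. Among the 13, log2 ratios run from -1.71 (ETV4) to 4.4 (SPIB).

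ETS factors bind DNA with partners, and 18 such genes were examined. All 18 passed the threshold, 11 higher and 7 lower in SEM::EGR3, with a median log2 ratio of 0.61 (of all tested genes 68.5% were called, 36.5% higher and 32.0% lower). PAX5, IRF4 and IRF8 passed the filter through SEM::EGR3 alone, and without them 8 were higher and 7 lower, with a median of 0.24. IRF4 and IRF8, which bind composite sites together with SPI1 or SPIB, had 0 counts in all SEM::mock libraries. In SEM::EGR3, IRF4 had 245, 125 and 141 counts and IRF8 had 165, 82 and 116, at least 29.8-fold and 21.3-fold higher than 3 counts per SEM::mock library would give. PAX5, which recruits ETS1 to the CD79A promoter, was counted 1, 1 and 2 times in SEM::mock and 3410, 1443 and 1760 times in SEM::EGR3, a ratio of 865 (95% exact binomial interval 338 to 3175). RUNX1, which binds cooperatively with ETS1, rose from 61.1 ± 1.48 to 156 ± 5.81 CPM and RUNX2 from 5.68 ± 0.749 to 190 ± 1.08 CPM. RUNX3, the third gene of this family, fell from 3.57 ± 1.47 to 1.5 ± 0.152 CPM.

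LMO2, an adaptor protein of stem cell and erythroid factor complexes, fell from 110 ± 9.91 to 32.0 ± 3.31 CPM (log2 ratio -1.77, SE 0.08, edgeR adjusted p = 5.28e-16). LYL1 and MYB fell with log2 ratios of -1.18 (SE 0.06) and -1.04 (SE 0.06). GATA1, which opposes SPI1 in the choice between erythroid and myeloid fate, was abundant in both lines, at 336 ± 9.68 CPM in SEM::mock and 286 ± 8.71 CPM in SEM::EGR3. The log2 ratio of GATA1 was -0.23 (SE 0.05, edgeR adjusted p = 0.000342). Of 11 tested erythroid markers, GATA1 itself among them, 8 were lower and 3 higher in SEM::EGR3, against 32.0% and 36.5% of all tested genes. The part of these markers was not tested. CEBPA and JUN, which bind to SPI1 or share its sites in myeloid genes, changed by 3.35 (SE 0.08) and 1.25 (SE 0.08) on the log2 scale. The GABPA partner genes GABPB1 and GABPB2 rose together with GABPA, by 0.39 (SE 0.09) and 1.16 (SE 0.11) on the log2 scale.

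Genes known from textbooks as targets of these factors did not share 1 direction. Their counts stand beside the shares of all tested genes, of which 36.5% were higher and 32.0% lower. Of 11 targets of SPI1, 7 passed the filter, 4 of them higher and 2 lower in SEM::EGR3, with a median log2 ratio of 1.67. CD79A and IL7R passed the filter through SEM::EGR3 alone, and without them 2 were higher and 2 lower, with a median of -0.52. NCF4, a subunit of the phagocyte oxidase, rose from 2.87 ± 1.05 to 89.4 ± 2.02 CPM and the integrin gene ITGAM from 4.09 ± 0.539 to 13.1 ± 1.26 CPM. The other 2 that rose, CD79A (ratio 123, interval 59.5 to 306) and IL7R (ratio 57.0, interval 10.0 to 2273), are genes of early B cells with 3 counts or fewer in each SEM::mock library. The 2 lower genes were BTK (log2 ratio -0.80, SE 0.08), a kinase of B cell receptor signalling, and CYBB (-0.71, SE 0.25), another oxidase subunit. CSF1R, which depends on SPI1 in macrophages, had 0 counts in SEM::mock and 15, 4 and 8 in SEM::EGR3, too few for the test. CD79A is also among the B-lineage markers, 8 of 9 tested of which were higher in SEM::EGR3, 5 of these 8 through that line alone, and the part of these cell type differences in the SPI1 targets was not tested.

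Of 6 megakaryocyte genes controlled by FLI1 and its relatives, 5 were listed and 3 passed the filter, 1 higher and 2 lower. For this list and those after it, the shares of all tested genes were 36.5% higher and 32.0% lower. ITGA2B rose from 7.18 ± 0.966 to 12 ± 1.32 CPM, and the platelet receptor genes GP1BA and GP6 fell with log2 ratios of -2.35 (SE 0.31) and -2.42 (SE 0.31) while FLI1 was higher. GP1BA and GP6 passed the filter through SEM::mock alone. Of 6 targets of GABPA, 1 was higher and 3 lower in SEM::EGR3, with a median log2 ratio of -0.07. The one that rose was ITGB2, a leukocyte integrin gene, from 1.18 ± 1.01 to 165 ± 5.55 CPM, and the 5 mitochondrial genes lay between -0.56 and 0.26 on the log2 scale. ITGB2 passed the filter through SEM::EGR3 alone. Of 6 targets of the complex of ELK proteins with serum response factor, 1 was higher and 4 lower. EGR1 fell from 307 ± 23.7 to 51.5 ± 7.83 CPM (log2 ratio -2.56, SE 0.08, edgeR adjusted p = 2.76e-19), and FOS did not differ beyond its error (log2 ratio 0.00, SE 0.19).

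**Figure D4:**
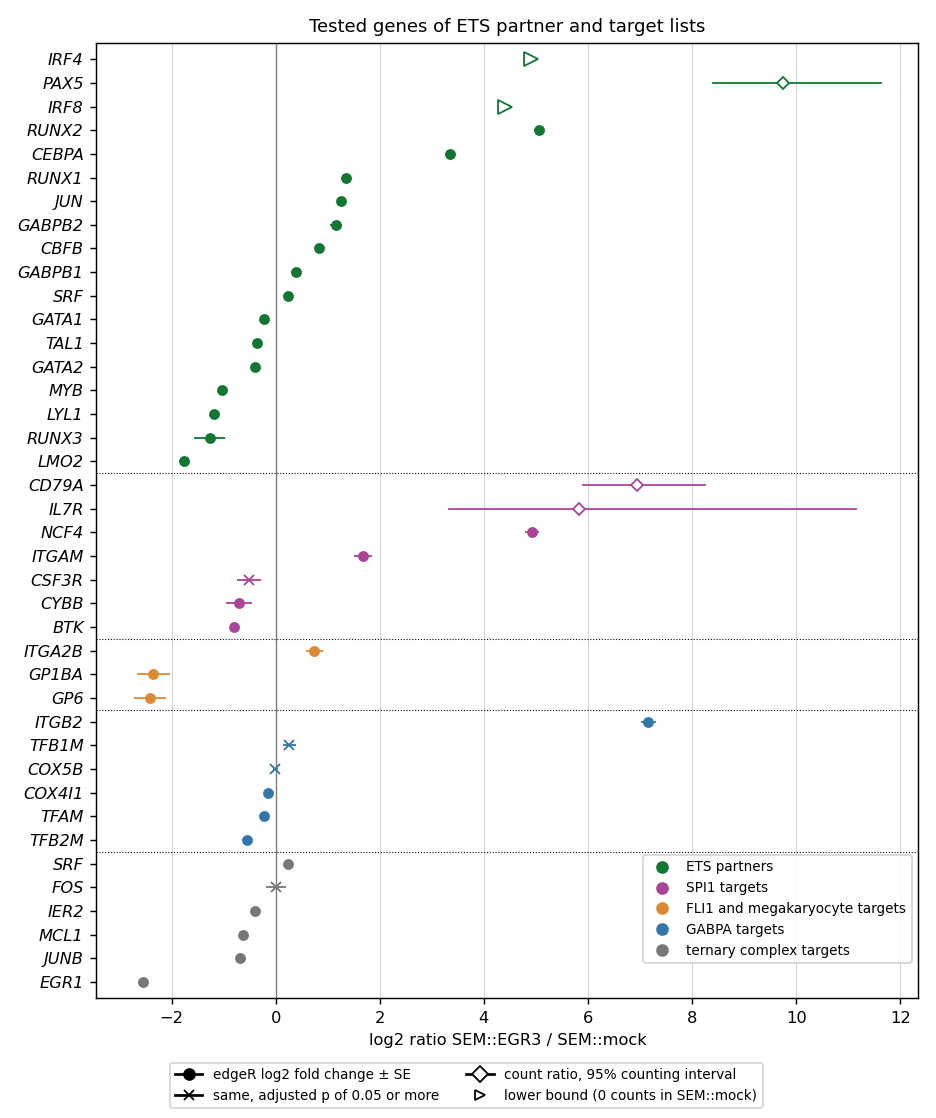
Log2 ratio of SEM::EGR3 to SEM::mock (x axis, 0 is no difference) of the tested ETS partner genes and of the tested textbook targets of SPI1, FLI1, GABPA and the ternary complex, in 5 blocks separated by dotted lines and marked by colour, with error bars and symbols as given under the axis. Apart from IRF4 and IRF8, drawn at their bounds, partner genes run from a log2 ratio of -1.77 (LMO2) to PAX5, whose unlogged ratio of 865 is drawn on the log2 scale. No block of targets moves to 1 side alone.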

How the data were processed

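Expression was measured by MACE-Seq in 3 SEM::mock and 3 SEM::EGR3 libraries, grouped by their titles. The deposited column headings spell the transgene ERG3, which was read as EGR3 and is not the gene ERG. The values the authors deposited are whole-number counts of each gene, CPM under the name TPM, size-factor normalized signal, group means, and log2 fold changes and p-values of their own comparison. Only the counts were used, and the number of per-sample columns that matched no sample was 0. The submitters' processing notes name Bowtie2, HTSeq and GRCh38, without annotation or strand setting.

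The count analysis used edgeR 4.0.16 under R 4.3.3 (filterByExpr, TMM, glmQLFit and glmQLFTest, Benjamini-Hochberg adjustment over 15465 genes). Standard errors were calculated from the F statistic, and the procedure was tested on simulated data. The limit of detection was set at 3 counts per library. Intervals are exact (Clopper-Pearson, 95%). Positions come from GENCODE release 29, which holds 97.0% of the gene identifiers. The 10 genes and all gene lists were chosen with earlier results of these data known. Named from the lists were the 10 genes, genes past the adjusted threshold that changed by 1 or more on the log2 scale, genes at the detection limit, the transgene and the nearest tested neighbours. A few further list genes (GATA1, GABPB1, ITGA2B, FOS, ELK1, BTK, CYBB, CSF1R, markers beside a result and the genes overlapping ELF1, GABPA and FLI1) were named after their values were seen. Replicates with the same number did not deviate together (correlations -0.105, -0.063 and -0.034), so no block was used. The p-values measure the spread between replicates of 1 line each. DESeq2 1.42.0 was an alternative test. Single values of 1 list gene are not reported here.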

Additional observations from a re-analysis of the deposited data

How the results depend on the processing

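Of 127 values of the 10 genes under alternative settings (DESeq2, other or no normalization factors, other filters, a replicate block, each library left out), 123 kept their direction and side of the threshold, 4 kept only the direction, and none changed sign. All 4 concern ETS2, which lost its call with DESeq2 (log2 fold change 0.21, adjusted p = 0.0765) and without SEM::mock replicate 2, SEM::EGR3 replicate 1 or SEM::EGR3 replicate 3 (0.13 to 0.27 over the 6 fits that leave out 1 library). With at least 10 counts in every library, ERG, FLI1 and ETS1 could not be fitted, and 7 of 10 tested other ETS family genes were called (4 higher, 3 lower) in place of 12 of 13 (7 higher, 5 lower), and 15 partner genes in place of 18. SPIB, ETV7 and SPDEF were no longer tested, and the cause of the 2 lost lower calls was not tested. The lower calls of that family were also 3 with DESeq2 and without normalization factors, while the higher ones stayed at 7 in number. Leaving out genes that SEM::mock held at 3 counts or fewer per library, an alternative chosen after seeing the data, moved the median log2 ratio of the 10 genes from 0.46 to -0.37, of the partner genes from 0.61 to 0.24 and of the SPI1 targets from 1.67 to -0.52. A minimum absolute log2 fold change of 1 left 6 of the 10 genes, 6 other family genes, 8 target genes (18 without it) and 3896 of all genes (10594 without it). With the replicate number as a block, the counts were 10, 11 other family genes, 18 partner genes, 17 target genes and 10081 of all genes, and the block changed no call among the 10 genes. Without 1 library each, 9 to 10 of the 10 genes were called, 10 to 12 other family genes, 18 partner genes, 17 to 19 target genes and 9938 to 10499 of all genes. Counts in SEM::mock are too low to size the ratio of ERG, and they leave wide counting intervals for those of FLI1 and ETS1.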
